A study of Drosophila melanogaster with 4 samples.

Results

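The proneural genes ac, sc, l(1)sc and ase of the Drosophila melanogaster achaete-scute complex lie together near the tip of the X chromosome, and the TATA-binding protein (TBP) peaks across their locus are described here. The peaks were taken as every peak on X that overlaps positions 255000 to 365000 of FlyBase release 5, a span of 110001 bp given as that of the complex. They numbered 4, of 1179 peaks on X and 7769 in the whole list. The peaks came from chromatin immunoprecipitation and sequencing with a rabbit polyclonal serum against TBP, with 2 immunoprecipitated and 2 input libraries. All 4 libraries share strain Exd-GFP-13T, genotype w; PBac{y[+]-attP-3B}VK00033, and a transgene in which GFP replaces the stop codon of the genomic exd region. Embryos were labelled 0 to 8 h and of unknown sex, while the extraction text describes an older collection from y; bw cn sp flies, a conflict that the labels do not settle. A single list was given for the whole series, and whether libraries were pooled for it is not stated. No peak thus has a value per library, an error or a known read depth, and every comparison below is a description with no test.

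The complex encodes basic helix-loop-helix transcription factors that give ectodermal cells the competence to become neural precursors. In the embryo ac, sc and l(1)sc are switched on in small proneural clusters, from which Notch signalling singles out a neuroblast, and their proteins act as dimers with Daughterless. ase is expressed later, in the neural precursors themselves. ac, sc and l(1)sc draw on enhancers scattered through the complex, several of which serve more than one of the genes. TBP is the subunit of the general factor TFIID that binds the TATA box just before a transcription start. The chromatin came from embryos and not from a sorted cell type, so TBP on a locus in few cells and weaker TBP in many cells cannot be told apart.

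All 4 genes matched the supplied RefSeq gene table, which is of release 6, so it gave names and order and no positions. In that order y, a pigmentation gene, and the non-coding RNA gene lncRNA:yar come just before ac. Between ac and sc the table lists 3 long non-coding RNA genes, lncRNA:CR44751, lncRNA:CR44752 and lncRNA:CR44753. No annotated gene separates sc from l(1)sc, and 1 protein-coding gene, Pgcl, lies between l(1)sc and ase. Cyp4g1, a cytochrome P450 gene of cuticular hydrocarbon synthesis, and ebo follow ase. Because the releases differ, no peak was assigned to ac, sc, l(1)sc or ase or to any neighbour.

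The 4 TBP peaks of the locus were of moderate score and short, and none lay close to another. In order of position, peak 1 ran from X 255400 to 255892, was 493 bp wide and had a score of 21.52. Peak 2 ran from X 263767 to 264308, was 542 bp wide and had the highest score of the 4, 52.22. Peak 3 ran from X 289833 to 290313, and at 481 bp it was the narrowest, with a score of 40.11. Peak 4 ran from X 303482 to 304222, was the widest at 741 bp, and scored 47.24. The score is the authors' own value on an unstated scale, and it serves only to rank peaks within the list. Peaks 2 to 4 thus fell in a narrow band of scores, and peak 1 was the weakest.

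**Figure D1:**
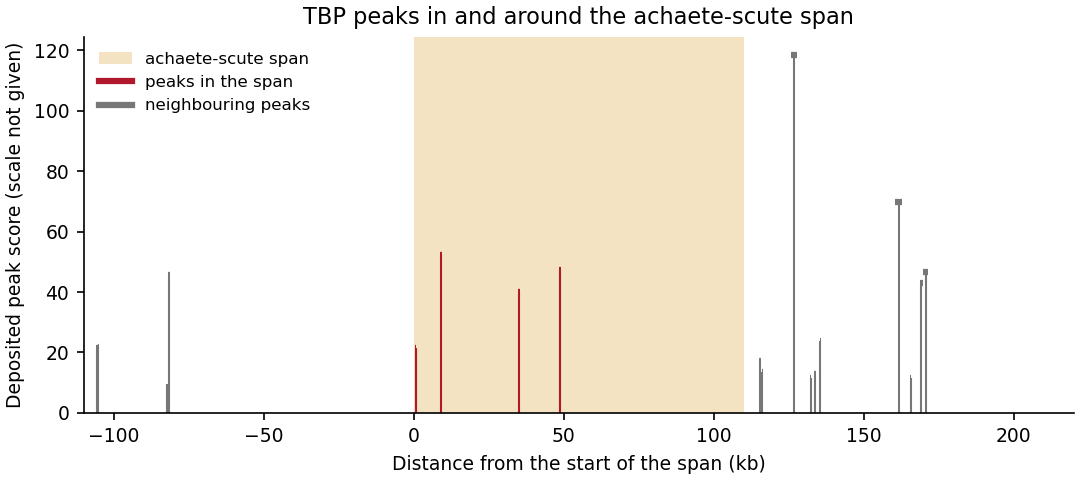
Deposited score (vertical axis, scale not given) of each TBP peak against its distance in kb from the start of the achaete-scute span, with the span shaded, its 4 peaks in red and neighbouring peaks in grey; horizontal strokes show peak widths to scale. The 4 red peaks lie within 49.2 kb of the start of the span, and the remaining 60.8 kb hold none.

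The peaks were not spread over the whole locus. From the start of peak 1 to the end of peak 4 they took up 48.8 kb, and the last 60.8 kb of the span, 55.3% of its length, held no peak. The gaps between them were 7.87 kb from peak 1 to peak 2, 25.5 kb from peak 2 to peak 3 and 13.2 kb from peak 3 to peak 4. All of these gaps were longer than the median gap between neighbouring X peaks, 4.87 kb. Centre to centre, the steps measured 8.39, 26.0 and 13.8 kb.

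The group of peaks was bounded by long empty stretches. Before peak 1, the nearest peak ended 81.6 kb away, a stretch that only 69 of the 1178 gaps on X exceeded. After peak 4, 65.9 kb passed before the next peak, and 87 gaps on X were longer. Peak 1 lay 400 bp inside the start of the span, so its membership depends on where the span is set to begin. The nearest peak outside on that side was at X 172928 to 173761, which scored 45.78 over 834 bp. On the far side the nearest peak outside was at X 370105 to 370666, 5.10 kb beyond the end, 562 bp wide with a score of 17.02. Narrowing the span by 1000 bp at each end left 3 peaks, and widening it by 10 kb at each end gave 6, with peaks 2 to 4 present in every version.

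In number of TBP peaks the locus was an ordinary stretch of X. X was cut into 202 other windows of the same length, laid end to end from both sides of the span between the first and last X peak. These windows held 5.87 ± 4.87 peaks (SD over windows), with a median of 5 and a middle 50% of 2 to 9. Fewer peaks than the 4 of the locus were found in 73 windows (36.1%), the same number in 21, and more in 108. No peak at all was listed in 23 windows. The windows richest in peaks held 26 at X 19505175 to 19615175, 23 at X 2125017 to 2235017, and 19 at both X 8065071 to 8175071 and X 8945079 to 9055079.

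**Figure D2:**
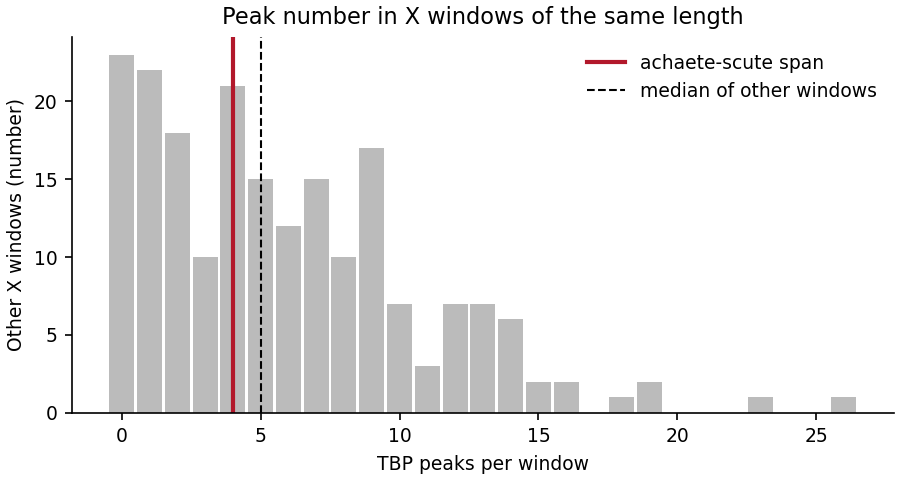
Number of other X windows of 110001 bp (vertical axis) by the number of TBP peaks each holds (horizontal axis); grey bars count windows, the red line marks the achaete-scute span and the dashed line the median of the other windows. The span, with 4 peaks, lies 1 peak below the median of 5, well inside the bulk of the windows.

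Covered sequence and the highest score gave similar ranks. Peaks covered 2257 bp of the locus, or 2.05%, and 71 of the 202 windows (35.1%) had less, with a median over windows of 3.79%. The highest score of the locus, 52.22, exceeded the highest score of 76 windows (37.6%), where an empty window counted as lower. Among the 179 windows with a peak, the median highest score was 69.84. The locus therefore lacked the strong peak that many windows of X had, and 1 such peak, at X 380877 to 382594 and scoring 118.6 over 1718 bp, lay 15.9 kb past its end.

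The scores at the locus were mostly above the middle of those on X. Its median score of 43.7 was above the median score of 147 of the 179 windows with a peak (82.1%), whose own median was 28.02. A score above the median of the whole list, 29.65, was reached by 3 of the 4 peaks, against 46.0% of the other 1175 X peaks. Peak 2 outscored 78.0% of those X peaks, peak 4 outscored 74.1%, peak 3 outscored 66.3% and peak 1 outscored 39.6%. None reached the 90th percentile of the other X peaks, 73.2. With 4 peaks, such shares are coarse. Isolated peaks elsewhere on X, with no neighbour within 5 kb, also scored higher, with a median of 35.61 against 26.83 for all other X peaks.

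Neighbouring windows of the same length showed how the locus sits at the tip of X. The window before it also held 4 peaks, with a median score of 21.7, a highest score of 45.78 and peaks as close as 75 bp to each other. The window after it held 10 peaks that covered 8.41% of its length, with a median score of 20.38. The locus thus had the highest median score of the 3 windows and the largest smallest gap, 7.87 kb against 75 bp and 112 bp, while the strongest single peak was in the window that follows.

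The peaks at the locus stood apart from each other more than most X peaks do. None of the 4 had another peak within 1000 bp, a position found for 40.7% of the other X peaks. All 4 had no other peak within 5 kb, against 25.2% of the other X peaks. For peaks 1 and 2 the nearest peak was 7.87 kb away, farther than for 83.8% of the other X peaks, and for peaks 3 and 4 it was 13.2 kb away, farther than for 90.3%. These distances come in pairs, since peaks 1 and 2 are each other's nearest neighbour and so are peaks 3 and 4. At a distance of 10 kb the count was 2 of 4, against 12.6% of the other X peaks.

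**Figure D3:**
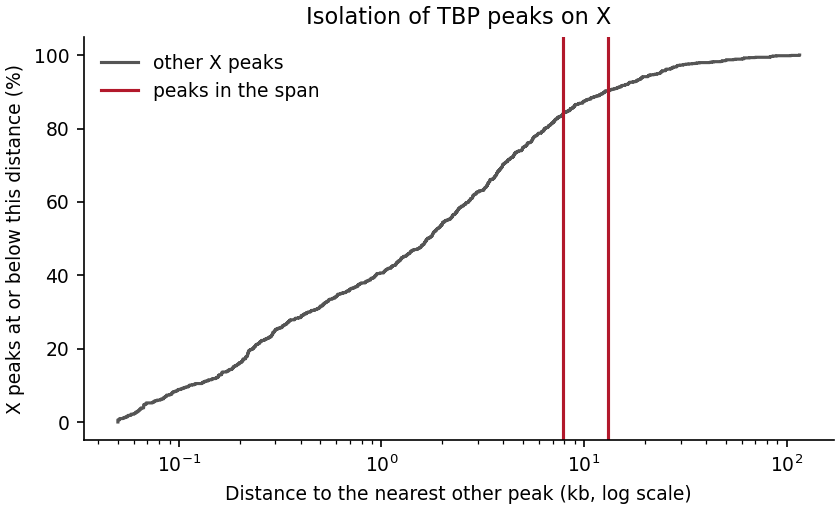
Share of the 1175 other X peaks (vertical axis, %) whose nearest other peak lies at or below a given distance (horizontal axis, kb, log scale); red lines mark the peaks of the achaete-scute span, peaks 1 and 2 at 7.87 kb and peaks 3 and 4 at 13.2 kb. Both lines fall on the upper part of the curve, above 83.8% and 90.3% of the other peaks.

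The contrast was as plain among windows with as many peaks. Of the 21 other X windows with 4 peaks, 20 had a pair closer than the closest pair of the locus, and the median of their smallest gaps was 0.701 kb against 7.87 kb. The lowest score in the window was below the locus minimum of 21.52 in 18 of the 21, with a median of 13.55. Their highest scores ran from 25.26 to 123.99 with a median of 53.23, close to the 52.22 of the locus, and 10 of the 21 were lower. They covered between 1425 and 4556 bp, and 6 of the 21 covered less than the locus did. In 1 of the 21 the widest peak was narrower than the widest of the locus, 741 bp. Matched for peak number, the locus thus differed in spacing, in its weakest peak and in its widest peak more than in its strongest. Spacing and weakest score are not separate traits, since a weak peak close to a stronger one gives both a small gap and a low minimum. In the window before the span, for example, the peak scoring 9.63 lay 75 bp from the one scoring 45.78. The comparison was not repeated with close peaks merged.

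Peaks 2 and 3 were sharp for their strength. Wider peaks have higher scores in this list, so each width was set against the 50 other X peaks nearest in score. Peak 2 was 0.48 times as wide as their median of 1126 bp, and none of the 50 was narrower. Peak 3 was 0.51 times as wide as a median of 934.5 bp, and 5 of its 50 were narrower. Peak 4 was 0.69 times as wide as a median of 1077 bp, and 10 of its 50 were narrower. Peak 1 differed from these, at 0.94 times a median of 525.5 bp, with 21 of 50 narrower.

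Peaks 2 and 3 were also narrow beside the peaks that scored at least as high. Such peaks tend to be wider, so this comparison adds little to the one matched for score. Of 259 other X peaks that scored at least 52.22, 2 were no wider than the 542 bp of peak 2, and their median width was 1385 bp. Of 396 that scored at least 40.11, 10 were no wider than the 481 bp of peak 3. Over chromosome arms 2L, 2R, 3L, 3R, 4 and X, 34 of 2028 other peaks (1.68%) with at least the score of peak 2 were no wider than it. For peak 3 this was 53 of 2752 (1.93%). Peaks 1 and 4 had close shares by this measure, of 7.95% and 8.19% over the arms and of 10.6% and 10.5% on X. Matched for score they were unlike, with peak 4 the sharper. Matched for score, the width ratio was below that of peak 2 in 3.15% of the other X peaks. It was below that of peak 3 in 4.17%, of peak 4 in 15.9% and of peak 1 in 43.6%. Sharpness like that of peaks 2 and 3 was therefore uncommon on X but not limited to the locus.

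**Figure D4:**
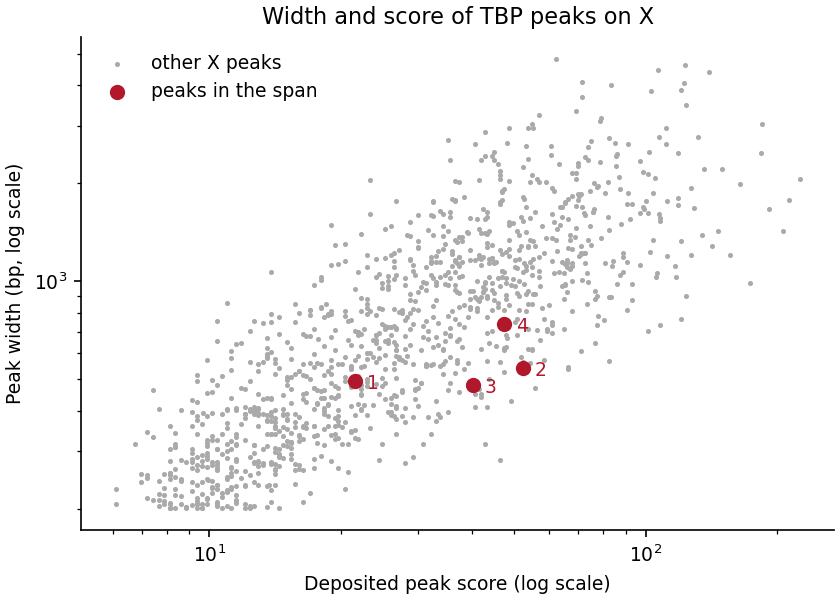
Width in bp against deposited score of the 1179 TBP peaks on X, both axes on log scales; grey points are peaks elsewhere on X and red points 1 to 4 are those of the achaete-scute span in order of position. Red points 2 and 3 lie at the lower edge of the cloud, at 542 and 481 bp, point 4 lies below its middle and point 1 near it.

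None of the 4 peaks reached 2000 bp, a width so uncommon on X, at 6.98% of the other peaks, that a count of 0 among 4 says nothing particular about the locus. Only peak 4 was wider than the list median of 720 bp, against 46.6% of the other X peaks. Without regard to score, peaks 1, 2 and 3 were wider than 37.1%, 40.3% and 36.1% of the other X peaks, and peak 4 than 54.4%. The widest of the 4 was 1.54 times as wide as the narrowest. Isolated peaks elsewhere were at their median slightly narrow for their score, less so than peaks 2 and 3, the sharpest of the 4. The 296 other X peaks with no neighbour within 5 kb had a median width of 703 bp and a median score of 35.61. Their median was 0.90 times the width of X peaks of similar score, against 1.00 for all other X peaks.

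Beside windows of the other long arms the peak number of the locus was again below the median. In windows of the same length the median was 6 on 2L, 7 on 2R, 5 on 3L and 6 on 3R. Fewer than 4 peaks were found in 33.7% of windows on 2L, 24.0% on 2R, 30.8% on 3L and 29.6% on 3R. On the small chromosome 4 none of 11 windows held fewer than 4. On 2L, 3L and 3R the share was near the 36.1% of X, and it was lowest on 2R among the long arms.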

How the data were processed

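TBP immunoprecipitates and inputs (2 libraries each) are represented by 1 deposited peak list, on FlyBase release 5 per the file headers, whose lines name MACS. BWA, MACS2, CASAVA (1.7.0.2; 1.7.0.3) and BDGP5 appear in the submitters' processing notes without roles. Thresholds, duplicate handling and pooling are not stated in those notes or the file, and they affect which weak peaks are listed and where peaks end. The authors deposited a score per peak without a scale. Without read depths, neither counting intervals nor detection limits could be had.

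Start, end and score were read as deposited. Widths, gaps, covered length and ranks among X peaks and X windows of 110001 bp were computed, with no test, in Python 3.11.15 with pandas 2.3.3, numpy 2.4.6, matplotlib 3.10.9 and scipy 1.17.1. The window ranking was tested on simulated data. All 4 peaks of the span were to be named, with the nearest peaks outside it and the 3 windows richest in peaks; the fourth shown ties with the third. Other peaks named, and the measures of isolation and sharpness, were chosen after their values were seen. The span, genes and measures were chosen with earlier results of these data known. The planned descriptions of promoter and protein sequences were not run, since no such sequence was used here.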

Additional observations from a re-analysis of the deposited data

How the results depend on the processing

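No paired analysis was possible because the list carries no values per library, and for the same reason no library could be left out. Of 43 alternatives, 36 kept a value within its limit. That limit was a factor of at most 1.5 for peak counts and width ratios, the range over the 4 peaks for medians, and the 95% exact binomial interval for shares of windows, and any change counted for coverage. The medians could not leave their limit, since each alternative used the same 4 peaks or some of them. Merging peaks within 1000 bp, or asking for the centre inside the span, could not change the peaks of the span either. The 36 thus include outcomes fixed in advance. Restricting the list to peaks at least 500 bp wide left 2 peaks in the span, covering 1.17%. With peaks above the list median score the coverage was 1.60%, and 53.5% of other X windows then held fewer peaks than the span, against 36.1% with all peaks. That share was 43.6% with peaks within 1000 bp merged and 27.9% without empty windows. Both follow from the setting itself, since no peaks of the span were merged and 23 windows were dropped. At a distance of 10 kb, 2 peaks of the span had no other peak nearby. Against 20 or 100 X peaks, or 50 peaks of all 6 arms, the width ratio ran from 0.45 to 0.50 for peak 2 and from 0.44 to 0.54 for peak 3. The ends of the span, the distances and the width comparisons were varied after seeing the data. Unknown depth limits any statement on stretches without a listed peak.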
